A study of Mus musculus with 4 samples.

Results

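Keratin genes of the urogenital sinus (UGS), 10 in all, were chosen by name from the table of gene expression: the basal keratins Krt5, Krt14, Krt15 and Krt17, the simple or luminal keratins Krt7, Krt8, Krt18 and Krt19, and the keratins Krt4 and Krt13 of stratified internal epithelia. They are 10 of 25819 rows in the table. The data were RNA-Seq of the whole UGS of male mouse embryos, with 4 libraries: wild type (WT) at E16.5, Tbx18Gfp/Gfp at E16.5, WT at E18.5 and Tbx18Gfp/Gfp at E18.5. Tbx18Gfp/Gfp embryos are homozygous for a GFP knock-in null allele of Tbx18, a T-box gene of the mesenchyme, and all groups were bred on a B6C3-F1 hybrid background. Each library was made from the pooled RNA of 3 embryos, so each group is 1 sample and no test between groups was possible. No error between embryos can be given for any value. The whole organ was used, so the values do not separate the epithelium from the mesenchyme and muscle around it, and lower expression cannot be told apart from fewer epithelial cells.

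Keratins are the intermediate filament proteins of epithelial cells. A filament is built from obligate pairs of a type I and a type II keratin, and the pair in use marks the position and state of the cell: Krt5 with Krt14 or Krt15 in basal cells on the basement membrane, Krt8 with Krt18 or Krt19 in simple epithelia and in the luminal cells of glands, and Krt4 with Krt13 in suprabasal cells of stratified internal epithelia. The UGS epithelium is the source of the prostate buds and continues into the urothelium of the bladder neck and urethra, and antibodies to keratin 5 and to keratins 8 and 18 are the usual stains for basal and luminal prostate cells. The comparison of genotypes asked whether expression of such epithelial markers had already moved in Tbx18 null UGS before birth.

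The type I genes Krt13 (chr11:100117327-100121566), Krt15 (chr11:100131758-100135928), Krt19 (chr11:100140810-100148665), Krt14 (chr11:100203162-100207548) and Krt17 (chr11:100256217-100261029) lie on the minus strand of 1 cluster in GRCm38. The type II genes Krt7 (chr15:101411043-101430313, plus strand), Krt5 (chr15:101707070-101712898, minus strand), Krt4 (chr15:101918535-101924735, minus strand) and Krt8 (chr15:101996698-102004482, minus strand) lie in the other cluster. Krt18 (chr15:102028180-102032027, plus strand) is the exception among type I genes, since it lies beside its partner Krt8, with 23.7 kilobases between them.

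The sequence just before the start site is shown for 3 keratins, 1 of each class, chosen by where their start sites lay. RefSeq start sites were listed for 6 of the 10 keratins, and only for these 3 did they lie within 50 bases of the 5′ end of the GENCODE gene. The 120 bases before the RefSeq start of Krt5 are chr15:101712906-101713025 on the minus strand, and those of Krt13 are chr11:100121567-100121686 on the minus strand (GRCm38.p6). For Krt18 the 120 bases before the GENCODE 5′ end are shown, chr15:102028060-102028179 on the plus strand. The Krt18 window ends at the GENCODE 5′ end, which lies 36 bases before its RefSeq start, so that no transcribed base is shown. Capitals mark the letters ATAAA.
Krt5: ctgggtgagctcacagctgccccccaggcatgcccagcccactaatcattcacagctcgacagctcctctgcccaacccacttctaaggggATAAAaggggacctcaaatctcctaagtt
Krt13: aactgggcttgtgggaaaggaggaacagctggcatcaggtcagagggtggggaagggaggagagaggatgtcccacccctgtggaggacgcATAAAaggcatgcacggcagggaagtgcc
Krt18: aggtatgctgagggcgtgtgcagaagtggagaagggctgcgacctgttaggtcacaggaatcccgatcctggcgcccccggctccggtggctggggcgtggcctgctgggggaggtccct

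The run ATAAA began 29 bases before the start of both Krt5 and Krt13. The bases at that distance from the RefSeq start of Krt18 were not searched, so Krt18 cannot be compared with them here. GC content of the shown bases was 55.8% for Krt5, 60% for Krt13 and 67.5% for Krt18. Over 250 bases before the start, read on both strands, 37.3% of 32851 RefSeq promoter windows hold ATAAA, 22.8% hold TATAA (which shares letters with it), 32.7% hold GGGCGG and 6.75% hold TGANTCA. Of the last 3, TGANTCA was found in Krt13, and no other match was found in the 250 bases of Krt5 and Krt13.

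Values are FPKM, that is, reads divided by transcript length and by the mapped reads of the library, so levels can be compared between genes. Differences are log2(FPKM + 0.1) of 1 library minus that of another. From genes that had a single read, the libraries were estimated to hold 29000000 to 64000000 mapped reads, with E18.5 WT the shallowest. The E18.5 WT library also stood apart in its values. Its FPKM summed to 375826, against 460392 to 504136 in the other libraries, and across 13031 genes its difference from the E18.5 mutant followed GC content (Spearman's rho 0.44, across genes and so no test), against 0.02 for the E16.5 pair. The same rho was −0.50 between the stages in WT, −0.23 between the stages in the mutant and −0.18 for E18.5 mutant against E16.5 WT, so the pairs without E18.5 WT that join the stages also carry some of this trend. Over all genes of at least 1 FPKM in each of the libraries compared, the median log2 difference was 0.28 between E18.5 mutant and WT and −0.33 between E18.5 and E16.5 WT, and 0.01 and −0.06 in the E16.5 and mutant pairs. Results that rest on E18.5 WT are therefore given beside pairs that leave it out, including E18.5 mutant against E16.5 WT, which differ in both genotype and stage. Tbx18 itself was at 3.47 FPKM in WT and 2.50 in mutant at the earlier stage, and at 3.16 and 2.93 FPKM at the later one. Transcript of the targeted locus is not separated from intact transcript in these values, so they are no check of genotype.

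All 10 keratins were above 1 FPKM in all 4 libraries. Together they made up 96.7% to 97.8% of the FPKM of all 51 rows named as keratins, of which 33 were below 1 FPKM in every library. The 10 keratins summed to 1141 FPKM in E16.5 WT, 874.9 in E16.5 mutant, 638.9 in E18.5 WT and 850.7 in E18.5 mutant. Over all keratin rows, type I genes summed to 1.39 to 1.46 times the type II genes in every library, so the overall balance of the pairing types was close across the libraries while single keratins moved by up to 2.90-fold.

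Krt15 was the highest of the 10 in every library, and Krt14, Krt17 and Krt13 were the lowest in that order in every library. Between them the order changed. In E16.5 WT, Krt15 was followed by Krt4, Krt19, Krt5, Krt8, Krt18 and Krt7. In E16.5 mutant, Krt5 stood below Krt8 and Krt18. In E18.5 WT, Krt18 had moved above Krt5 and Krt5 and Krt8 were 1.01-fold apart. In E18.5 mutant, Krt18 and Krt8 stood next after Krt15 and Krt19, above Krt4, and Krt5 was the lowest of the abundant 7. Neighbours were as little as 1.01-fold apart, and with 1 library each it is not known which neighbours differ beyond the spread between embryos.

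**Figure D1:**
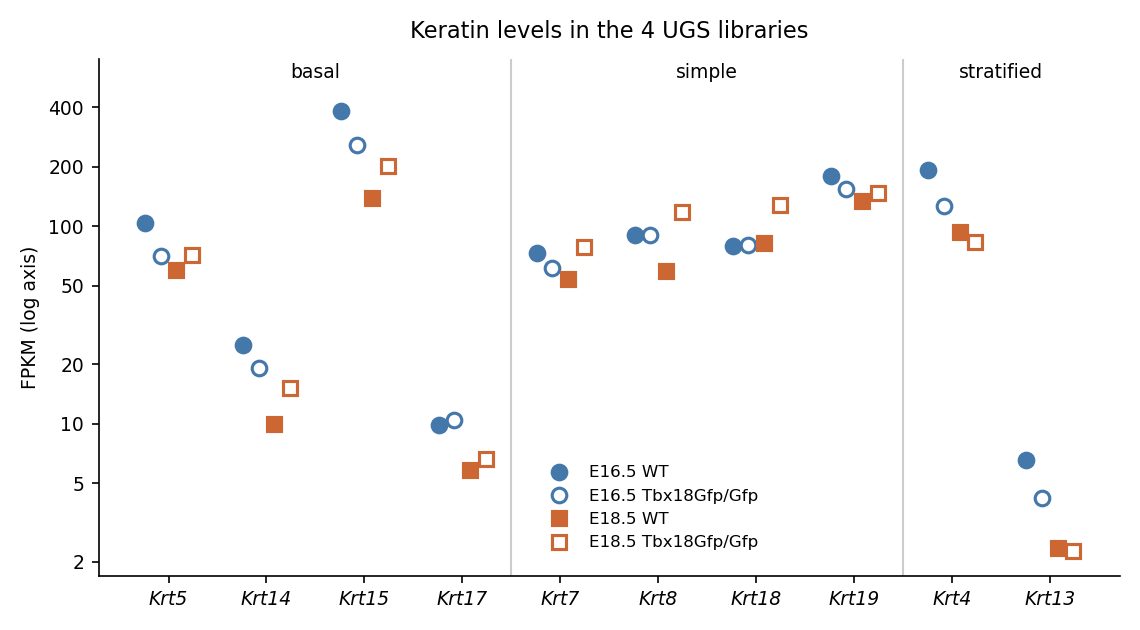
FPKM (log axis) of the 10 keratins in the 4 libraries, 1 point per library, with WT filled and Tbx18Gfp/Gfp open, E16.5 as circles and E18.5 as squares. E16.5 WT is the highest point for Krt5, Krt14, Krt15, Krt19, Krt4 and Krt13, and E18.5 mutant is the highest for Krt7, Krt8 and Krt18.

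The shift between classes was the clearest pattern and does not depend on scaling between libraries. The trend of E18.5 WT with GC content differs from gene to gene, so it can still move the shares and ratio of that library. Basal keratins made up 45.8% of the FPKM of the 10 in E16.5 WT, 40.9% in E16.5 mutant, 33.5% in E18.5 WT and 34.6% in E18.5 mutant. Simple keratins went the other way, with 36.8%, 44.2%, 51.5% and 55.4% in the same order. Stratified keratins made up 17.3%, 14.9%, 14.9% and 9.99%. The sum of the basal keratins was thus 1.24 times that of the simple keratins in E16.5 WT, 0.926 times in E16.5 mutant, 0.650 times in E18.5 WT and 0.625 times in E18.5 mutant. As deposited, the ratio was lower at E18.5 than at E16.5 in both genotypes, and lower in mutant than in WT at E16.5, while the E18.5 libraries differed little. Shares and ratios were not recomputed without the trend. Between the stages in WT, subtracting it took the log2 difference of Krt17 from −0.76 to 0.19 and that of Krt19 from −0.41 to 0.46. The median difference of the basal keratins minus that of the simple keratins stayed below 0 there, at −0.64 as deposited and −0.58 after subtraction.

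Krt15 carried much of the basal sum, with 33.6%, 29.4%, 21.7% and 23.6% of the FPKM of the 10. Without it the ratio of basal to simple keratins was 0.330, 0.259, 0.229 and 0.198, in the same order of libraries. The Krt5 to Krt8 ratio takes 1 gene from each of the usual stains. It was 1.15 in E16.5 WT and 0.783 in E16.5 mutant, and 1.01 in E18.5 WT and 0.605 in E18.5 mutant. For this pair of genes, the mutant value was below the WT value at both stages. The ratio leaves out Krt18, which the luminal stain also covers. The Krt5 and Krt8 transcripts have GC contents of 56.9% and 57.1% and lengths of 2197 and 1958 bases. With the trend subtracted, mutant minus WT in log2 at E18.5 was −0.45 for Krt5 and 0.25 for Krt8, against 0.26 and 1.00 as deposited. The difference of Krt5 was thus below that of Krt8 on both scales. The ratio itself was not recomputed without the trend.

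Set against 24 other epithelial genes (Epcam, cadherin, claudins, splicing and transcription factors), the classes also separated. The basal sum was 1.01 times the summed FPKM of these genes in E16.5 WT, 0.731 times in E16.5 mutant, 0.594 times in E18.5 WT and 0.696 times in E18.5 mutant. The simple sum was 0.811, 0.789, 0.913 and 1.11 times, and the stratified sum 0.382, 0.267, 0.265 and 0.201 times. Relative to these genes, the basal and stratified sums were lower and the simple sum higher at E18.5 than at E16.5 in both genotypes. These sums are as deposited, so those of E18.5 WT still hold its trend.

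**Figure D2:**
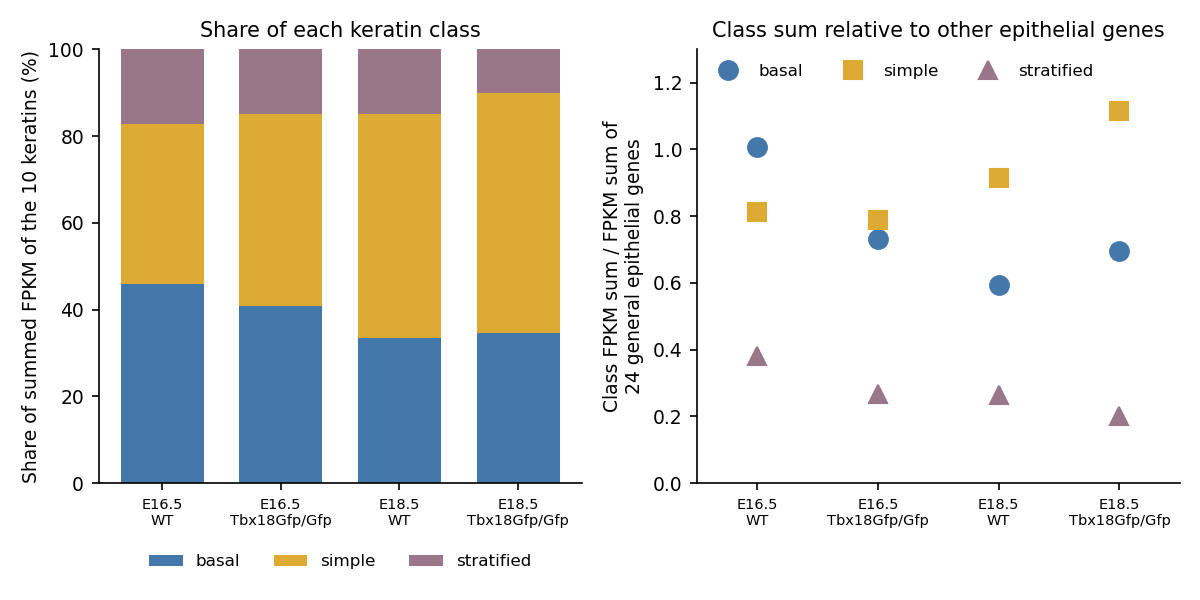
Left, share (%) of the summed FPKM of the 10 keratins held by the basal, simple and stratified classes in each library. Right, summed FPKM of each class divided by that of 24 general epithelial genes: the basal points lie at 1.01 in E16.5 WT and between 0.594 and 0.731 elsewhere, and the simple point is highest, at 1.11, in E18.5 mutant.

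At E16.5, Krt5, Krt14, Krt15, Krt4 and Krt13 were lower in the mutant, while Krt17, Krt8 and Krt18 differed little as deposited. None of the 10 reached 2-fold in either direction, where 0.44% of the 14761 genes tested (1 FPKM or more in either of both libraries) were at least 2-fold higher and 1.08% as much lower. Of the 10, 7 were lower and 3 higher, where 54.2% of tested genes were higher. The median log2 difference of the 10 was −0.32 against 0.01 for all tested genes. The class medians were −0.47 for basal, −0.10 for simple and −0.61 for stratified keratins.

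Krt15, a type I keratin of basal and progenitor cells, had 383.9 FPKM in WT and 257.6 in mutant at E16.5, a log2 difference of −0.58. Krt5, the type II partner of basal cells, had 104.0 and 70.7 FPKM (−0.56). Krt14, the partner of Krt5 in mature basal cells, had 24.9 and 19.1 FPKM (−0.38). Krt4, the type II keratin of suprabasal cells in stratified internal epithelia, had 191.2 and 126.5 FPKM (−0.60), and its partner Krt13 had 6.58 and 4.23 FPKM (−0.63). These 5 lay near the low end of all genes, with from 2.30% of tested genes below Krt13 to 5.20% below Krt14. Krt17, a keratin of basal cells and of activated epithelium, went against its class with 9.88 and 10.4 FPKM (0.07).

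Of the simple keratins at E16.5, Krt8, the type II keratin of simple epithelia, was level at 90.2 FPKM in WT and 90.4 in mutant (0.00). Its partner Krt18 had 79.0 and 80.6 FPKM (0.03). Krt19, a type I keratin without a long tail domain that is found in simple and in some basal cells, had 178.3 and 154.1 FPKM (−0.21). Krt7, a type II keratin of ducts and urothelium, had 72.9 and 61.3 FPKM (−0.25). The lower values of Krt5, Krt14, Krt15, Krt7, Krt19, Krt4 and Krt13 in the mutant held their sign under all 10 settings tried, the deposited scale included. Krt8, Krt17 and Krt18 were lower in the mutant in at least 1 of them. Of these settings, the changed filters and the leaving out of repeated symbols cannot move the value of a single keratin in any comparison.

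At E18.5 the direction of the genotype difference turned on the E18.5 WT library. As deposited, 8 of the 10 keratins were higher in the mutant, with a median of 0.39 against 0.28 for all genes, of which 69.5% of those tested were higher. None reached 2-fold, where 14.3% of 14733 tested genes were at least 2-fold higher and 2.67% as much lower. With the trend on transcript length and GC content subtracted, the median of the 10 was −0.31.

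As deposited, Krt8 had the largest difference of the 10 at E18.5, with 59.0 FPKM in WT and 117.9 in mutant (1.00 when rounded, but below the threshold of 2-fold). It was higher in the mutant under every setting, down to 0.25 with the trend subtracted. On that scale Krt5, Krt4, Krt13, Krt17 and Krt19 had larger differences, all negative. Krt7 was also higher under every setting, with 54.3 and 78.3 FPKM (0.53, and 0.17 with the trend subtracted). Krt18 had 82.0 and 128.1 FPKM (0.64), which became −0.11 with the trend subtracted. Krt19 had 134.0 and 147.0 FPKM (0.13), which became −0.67 and was also below 0 with equal library sums, median centring and upper quartile scaling.

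The basal keratins were each higher in the E18.5 mutant as deposited and lower with the trend subtracted. Krt5 had 59.8 FPKM in WT and 71.4 in mutant (0.26, or −0.45 with the trend subtracted). Krt14 had 9.91 and 15.2 FPKM (0.61, or −0.17), Krt15 138.7 and 201.2 FPKM (0.54, or −0.15) and Krt17 5.81 and 6.62 FPKM (0.18, or −0.69). Krt5 and Krt17 were also below 0 with equal library sums, median centring and upper quartile scaling. Krt4 and Krt13 were the only members lower in the mutant under every setting, with 93.1 and 82.7 FPKM for Krt4 (−0.17, or −0.80) and 2.35 and 2.27 FPKM for Krt13 (−0.05, or −0.72). For Krt13 the deposited difference lies inside the counting error, as the E18.5 WT value rests on an estimated 98 reads.

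Scaling between libraries cannot move the gap between the class medians beyond the pseudocount, so at E18.5 only the trend subtraction could change it. The median of the basal keratins minus that of the simple keratins was −0.19 as deposited and −0.34 with the trend subtracted. At E16.5 the same gap was −0.37 on both scales. By sums, the basal keratins at E18.5 were 0.650 times the simple keratins in WT and 0.625 times in mutant. The classes also overlapped at E18.5 as deposited, with Krt14 (0.61) and Krt15 (0.54) above Krt7 (0.53) and Krt19 (0.13). Whether the genotype difference itself changed between the stages was not tested.

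**Figure D3:**
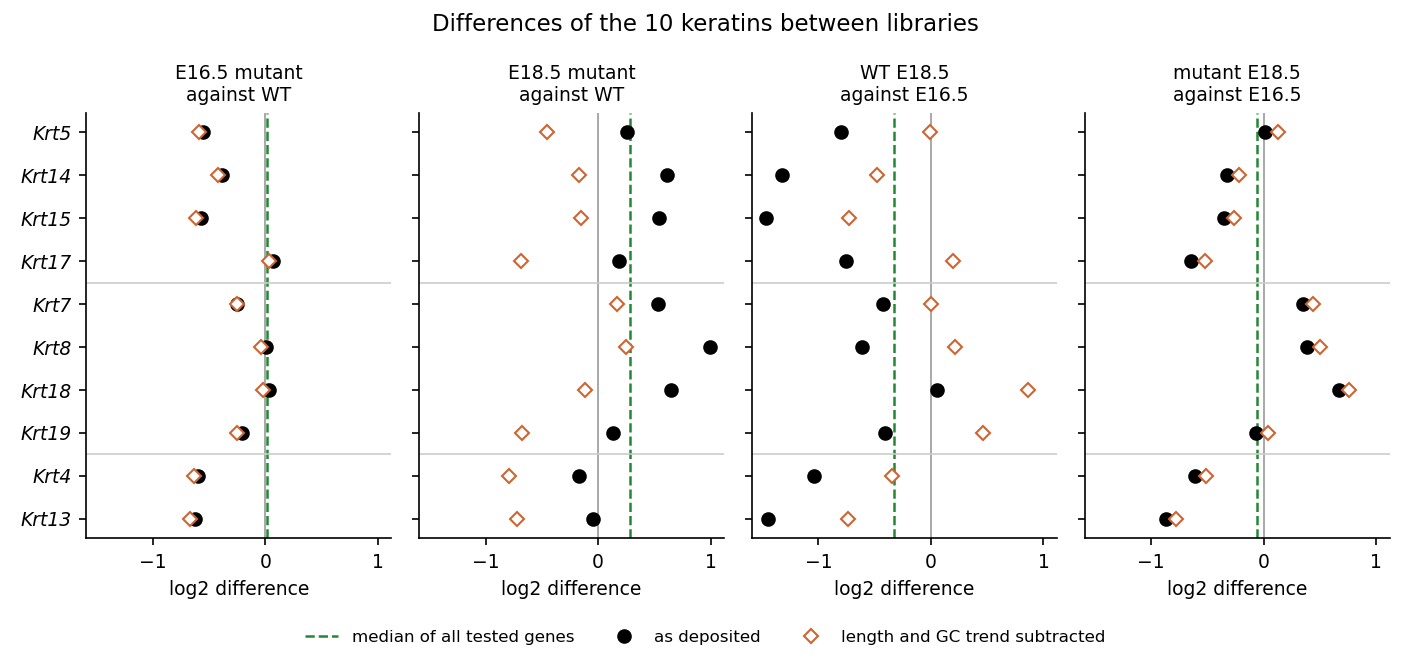
Log2 difference (log2(FPKM + 0.1)) of each keratin in 4 comparisons, as deposited (filled) and with the trend on transcript length and GC content subtracted (open), with the median of all genes expressed in both libraries as a dashed line. Filled and open points lie close together where E18.5 WT is absent and far apart for most keratins where it is present.

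Between E16.5 and E18.5 the mutant libraries, which are free of E18.5 WT, showed the classes moving apart. Of the 10, 6 were lower and 4 higher at E18.5, where 35.3% of 14713 tested genes were higher. None of the 10 reached 2-fold, against 1.24% of tested genes at least 2-fold higher and 0.523% as much lower. The median was 0.37 for simple, −0.34 for basal and −0.74 for stratified keratins, against −0.06 for all genes.

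Krt18 went from 80.6 to 128.1 FPKM in the mutant (0.67), a larger difference than that of 97.6% of tested genes. Krt8 went from 90.4 to 117.9 FPKM (0.38) and Krt7 from 61.3 to 78.3 FPKM (0.35), above 94.8% and 94.3% of tested genes. Krt8 and Krt18 together made up 19.5% of the FPKM of the 10 keratins at E16.5 and 28.9% at E18.5 in the mutant, against 14.8% and 22.1% in WT. Krt19 stayed near its level, with 154.1 and 147.0 FPKM (−0.07).

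Krt13 was lower at E18.5 than at E16.5 in the mutant, with 2.27 against 4.23 FPKM (−0.87), and 0.686% of tested genes were further down. Krt17 had 6.62 against 10.4 FPKM (−0.64) and Krt4 82.7 against 126.5 FPKM (−0.61). Krt15 had 201.2 against 257.6 FPKM (−0.36) and Krt14 15.2 against 19.1 FPKM (−0.33). Krt5 was level, with 71.4 against 70.7 FPKM (0.01). The direction held under all 10 settings for Krt14, Krt15, Krt17, Krt4, Krt13, Krt7, Krt8 and Krt18, and not for Krt5 and Krt19, whose differences were near 0.

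In WT, 9 of the 10 keratins were lower at E18.5 as deposited, where 27.7% of 14807 tested genes were higher. Of the 10, 4 were at least 2-fold lower, against 16% of tested genes at least 2-fold lower and 2.53% as much higher. The 4 were Krt15 (from 383.9 to 138.7 FPKM, −1.47), Krt13 (from 6.58 to 2.35 FPKM, −1.45), Krt14 (from 24.9 to 9.91 FPKM, −1.32) and Krt4 (from 191.2 to 93.1 FPKM, −1.04). With the trend subtracted none was 2-fold lower, and these 4 had −0.73, −0.74, −0.47 and −0.35. The same keratins thus had the lowest values of the 10 on both scales.

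Of the other 6, 5 changed sign or came close to 0 with the trend subtracted, and Krt18 became larger. Krt5 (from 104.0 to 59.8 FPKM, −0.80) became −0.01, Krt17 (from 9.88 to 5.81 FPKM, −0.76) became 0.19, Krt8 (from 90.2 to 59.0 FPKM, −0.61) became 0.21 and Krt19 (from 178.3 to 134.0 FPKM, −0.41) became 0.46. Krt7 (from 72.9 to 54.3 FPKM, −0.43) became 0.00. Krt18 was the only member higher at E18.5 in WT as deposited, with 79.0 and 82.0 FPKM (0.05), which became 0.86. The basal median minus the simple median was −0.64 as deposited and −0.58 with the trend subtracted, beside −0.71 on both scales in the mutant.

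Leaving out E18.5 WT altogether, E18.5 mutant against E16.5 WT gave 7 keratins lower and 3 higher, where 39.8% of tested genes were higher. Krt13 (−1.49) and Krt4 (−1.21) were at least 2-fold lower and none was 2-fold higher, where 1.16% of 14766 tested genes were at least 2-fold lower and 1.14% as much higher. All 4 basal keratins were lower, from −0.54 for Krt5 to −0.93 for Krt15. Krt18 (0.70) and Krt8 (0.39) were higher under every setting and Krt19 (−0.28) was lower, while Krt7 (0.10) was −0.028 with library sums made equal. In this pair stage and genotype cannot be told apart.

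Ratios between filament partners were not fixed. Krt5 was 4.17 and 3.70 times Krt14 in WT and mutant at E16.5 and 6.04 and 4.69 times at E18.5. Krt8 was 1.14 and 1.12 times Krt18 at E16.5 and 0.720 and 0.920 times at E18.5, so Krt18 passed Krt8 in both genotypes. Krt4 was 29.1 and 29.9 times Krt13 at E16.5 and 39.7 and 36.4 times at E18.5. Between the type I keratins Krt15 and Krt14, which are not partners, Krt15 was 15.4, 13.5, 14.0 and 13.2 times Krt14 in E16.5 WT, E16.5 mutant, E18.5 WT and E18.5 mutant.

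Nearly all other keratins were far lower. Of 19 other epithelial keratins, 8 reached 1 FPKM in a library of the E16.5 pair, and the 19 summed to 21.4 to 25.1 FPKM in each library. Krt20, the keratin of the superficial cells of the urothelium, stood out among them: it had 1.63 FPKM in E16.5 WT, 0.638 in E16.5 mutant, 5.24 in E18.5 WT and 6.21 in E18.5 mutant. It was higher at E18.5 in both genotypes, by 1.62 in WT and 3.10 in mutant, and lower in mutant than WT at E16.5 (−1.23). Krt6a, the inducible keratin of stressed epithelium, had 5.12, 4.37, 1.39 and 2.54 FPKM, and Krt1, of differentiating epidermis, had between 2.81 FPKM in E16.5 WT and 0.957 FPKM in E18.5 mutant. The 21 rows of hair and hair root sheath keratins summed to at most 0.627 FPKM in any library.

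Of 19 other genes of basal cells tested at E16.5, 14 were lower in the mutant and 5 higher, none by 2-fold. Of all tested genes, 54.2% were higher, with 0.44% at least 2-fold higher and 1.08% as much lower. The median of the 19 was −0.20, beside −0.47 for the 4 basal keratins, and this gap was not tested. The largest difference was that of Sfn, an epithelial 14-3-3 protein, with 26.3 and 17.5 FPKM (−0.59). Trp63, the transcription factor of basal cells, had 10.7 and 7.93 FPKM at the earlier stage (−0.42), and 15.5 and 8.39 FPKM at the later one (−0.88). Krt5, Krt14 and Krt15 were higher in the mutant at the later stage as deposited. With the trend subtracted they were lower, at −0.45, −0.17 and −0.15, and no such value is given for Trp63. Perp, a junction protein, had 39.8, 32.0, 38.2 and 37.2 FPKM in the 4 libraries, and Snai2 had 23.8, 26.3, 41.2 and 20.9 FPKM. From E16.5 to E18.5 in the mutant 14 of 18 were lower, with a median of −0.17, where 35.3% of all tested genes were higher. Pkp1, a desmosomal plakophilin, had the largest difference of the 18 (from 6.33 to 3.68 FPKM, −0.77).

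The 24 general epithelial genes had medians of −0.15 at E16.5 (17 lower), 0.27 at E18.5 (18 higher, and −0.27 with the trend subtracted), −0.60 between the stages in WT (20 lower) and −0.21 in the mutant (20 lower). Of all tested genes, 54.2% were higher in the mutant at E16.5, 69.5% at E18.5, and 27.7% and 35.3% were higher at the later stage in WT and in the mutant. Epcam had 59.3, 64.7, 48.3 and 49.1 FPKM in the 4 libraries and Spint2 83.2, 75.8, 48.2 and 75.4 FPKM. Desmosome and keratin linker genes, which anchor keratin filaments at the membrane, had medians of −0.29 at E16.5 (9 of 14 lower) and −0.16 between the stages in the mutant (11 of 14 lower). Among them Jup had 52.5, 43.6, 30.3 and 40.3 FPKM and Dsp 21.2, 16.6, 18.3 and 13.0 FPKM. Against E16.5 WT, 22 of the 24 epithelial and 11 of 13 desmosome genes were lower in E18.5 mutant, while Krt8 and Krt18 were higher. Of all tested genes, 39.8% were higher in that pair.

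Luminal and urothelial genes had a median of −0.21 at E16.5, with 9 of 16 lower in the mutant. Between the stages in the mutant their median was −0.05, with 8 of 16 higher. Of all tested genes, 54.2% were higher in the first of these comparisons and 35.3% in the second. The median between the stages joins unlike genes, since 4 of the 16 were at least 2-fold higher at E18.5, against 1.24% of tested genes. The 4 were Krt20 (3.10), Upk2 (1.27), Upk3a (1.26) and Upk1a (1.14), and the uroplakins Upk1b (0.94) and Upk3b (0.78) were higher too. Apart from Krt20 and Upk3a, these were named after their values were seen. The most abundant were Cd24a, with 196.7, 212.1, 291.1 and 178.9 FPKM, and Psca, with 162.2, 123.5, 281.8 and 162.5 FPKM. Upk3a, a uroplakin of superficial urothelial cells, had 55.4, 46.0, 56.8 and 110.4 FPKM and so was highest in E18.5 mutant, as were Krt7, Krt8 and Krt18. Epidermal differentiation genes, of which 7 were tested, had a median of −0.50 at E16.5, with all 7 lower in the mutant, and Sprr1a, a cornified envelope protein, had 199.3, 140.5, 821.7 and 268.4 FPKM.

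Genes of the other tissues in the organ moved as well, and their part in the keratin values was not tested. At E16.5 the medians were 0.03 for 15 mesenchyme genes, −0.87 for 12 smooth muscle genes, −1.21 for 13 skeletal muscle genes and 0.60 for 6 leukocyte genes. From E16.5 to E18.5 in the mutant they were 0.14, 1.90, 0.02 and −0.53. The summed FPKM of the 12 smooth muscle genes ranged from 816.7 in E16.5 mutant to 4205 in E18.5 mutant, and that of the skeletal muscle genes from 382.5 in E16.5 mutant to 908.3 in E16.5 WT. None of the genes in these 4 lists was at 0 in any library. The other intermediate filament genes had a median of −0.51 at E16.5, with 11 of 14 lower, where 54.2% of all tested genes were higher. They included Vim at 360.0 to 422.4 FPKM and Prph at 59.4 to 134.3 FPKM.

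**Figure D4:**
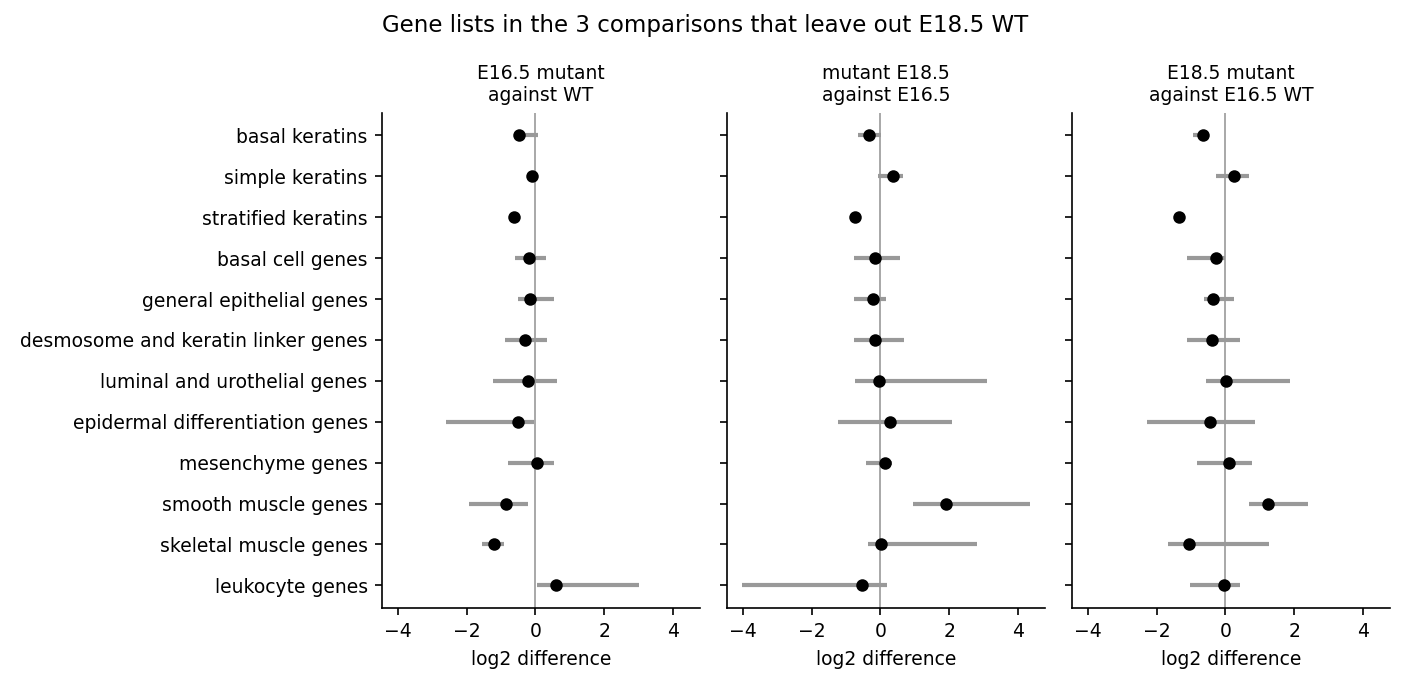
Median (point) and lowest to highest (line) log2 difference of the tested genes of 12 lists in the 3 comparisons without E18.5 WT. Basal and stratified keratins lie below 0 by their medians in all 3 comparisons, and simple keratins lie above 0 in the 2 that contain E18.5 mutant.

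Genes with the most similar profile were sought among 8630 rows with at least 5 FPKM in every library, by the distance between log2 profiles centred on their mean over the 4 libraries. Nearest to Krt5 were Snap91, Rtn2 and Crmp1 (distance 0.11 to 0.13), and nearest to Krt14 were Mmp15, Ache and Krt15 (0.14 to 0.17). Nearest to Krt8 were Ilk, LOC100504344 and P4ha2, with Ilk between 62.7 FPKM in E18.5 WT and 125.4 FPKM in E18.5 mutant (distance 0.01). Nearest to Krt18 were Rras, Htra3 and Cav2 (0.04 to 0.08). With 4 points many genes share a profile, and E18.5 WT sets part of each.

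Some reads may not belong to 1 keratin alone. Of the 50-base words of the longest coding transcript, 26.9% of those of Krt8 were also in the pseudogene Krt8-ps, 14.4% of those of Krt14 in Krt16 or Krt17, and 8.52% of those of Krt5 in other genes, led by Krt6a. The share was 3.99% for Krt17 and under 1% for the other 6, and 0 for Krt7, Krt19, Krt4 and Krt13. Krt16 had at most 0.203 FPKM. For the 10 keratins, 95% counting error alone was from ±0.02 to ±0.36 on the log2 scale, widest for Krt13 at E18.5, and it does not cover the spread between embryos.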

How the data were processed

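RNA-Seq was made from whole male UGS, 1 library of RNA pooled from 3 embryos per genotype and stage. The authors aligned single-end reads with TopHat2 2.1.0 and estimated expression with Cufflinks 2.2.1; the submitters' processing notes also name CASAVA 1.8.2 and Trimmomatic 0.30. The deposited values are FPKM, with no further scaling stated. Their genome build was not given in the sources used here, so positions printed are those of GENCODE (GRCm38) or, for promoters, RefSeq, matched by symbol.

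The 10 keratins and all lists were chosen with earlier results of these data known. Differences used a pseudocount of 0.1, and genes that reached 1 FPKM in either of the libraries compared were counted against a 2-fold threshold, as the study filtered them. All 10 keratins were given. Of other lists, counts and medians, the 2 genes with the highest mean FPKM and those with the largest differences were eligible for naming, and Trp63 and Tbx18 were added. A lowess trend (span 0.3) on transcript length and GC content, for 93.8% of expressed rows, was an alternative, with equal library sums, median centring, upper quartile scaling, pseudocounts of 0.01 and 1, no filter, a 5 FPKM filter and repeated symbols left out. Reads per gene were estimated from the FPKM of single-read genes. The steps were tested on simulated data. Python 3.11.15 with statsmodels 0.14.6, numpy 2.4.6, scipy 1.17.1 and pandas 2.3.3 was used, and matplotlib 3.10.9 for figures.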

Additional observations from a re-analysis of the deposited data

Results flagged for a closer look

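The genotype difference of 5 keratins had opposite directions at the stages, each larger than its counting error. In log2, mutant minus WT, Krt5 was at −0.56 at the earlier stage and 0.26 at the later, Krt14 at −0.38 and 0.61, and Krt15 at −0.58 and 0.54. For Krt7 the values were −0.25 and 0.53, and for Krt19 −0.21 and 0.13. Each stage has 1 library per genotype, so the difference between the stages was not tested. With the trend on transcript length and GC content subtracted, Krt5, Krt14, Krt15 and Krt19 were lower in the mutant at E18.5 too, at −0.45, −0.17, −0.15 and −0.67, and Krt7 remained higher, at 0.17. Krt5 and Krt19 were also lower in the mutant at E18.5 with equal library sums (−0.17 and −0.29), median centring (−0.029 and −0.15) and upper quartile scaling (−0.0065 and −0.13).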

How the results depend on the processing

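Limits come first from the design: 1 pooled library per group gives no error between embryos, and whole organs do not separate cell numbers from RNA per cell. No paired analysis was possible because each group holds 1 library and no result comes from a test, and for the same reason no replicate could be left out. At E18.5 the median log2 difference of the 10 keratins between mutant and WT (0.39 as deposited) was −0.031 with equal library sums, 0.11 when centred, 0.13 with upper quartile scaling, −0.31 with the length and GC trend subtracted and 0.53 with the 5 FPKM filter. Between the stages in WT (−0.78) it was −0.49, −0.45, −0.48 and −0.0024 under the first 4 of these, and 2 keratins were 2-fold lower when centred and 0 with the trend subtracted, against 4. In the mutant (−0.20) it was −0.14 when centred, −0.087 with the trend subtracted and −0.068 with the 5 FPKM filter, which leaves out Krt13. For E18.5 mutant against E16.5 WT (−0.56) it was −0.69 with equal sums, −0.52 when centred and −0.48 with the trend subtracted. At E16.5 (−0.32) it was −0.42 with equal sums. The basal to simple ratio in E16.5 WT, E16.5 mutant, E18.5 WT and E18.5 mutant was 1.16, 0.850, 0.603 and 0.578 without Krt14 and Krt17, and 1.15, 0.783, 1.01 and 0.605 for Krt5 to Krt8. Taken from class medians of log2(FPKM + 0.1), turned back from log2, the ratio was 0.604, 0.432, 0.351 and 0.269. Without Krt15, an alternative chosen after seeing the data, the ratio of sums was 0.330, 0.259, 0.229 and 0.198. Of 450 values of single keratins under other settings, 323 moved by less than their counting error, 127 by more, and no difference of at least 2-fold changed sign. Such differences were few, with 4 between the stages in WT and 2 in E18.5 mutant against E16.5 WT. Smaller differences did change sign, among them those of Krt5, Krt14, Krt15, Krt17, Krt18 and Krt19 between the genotypes at E18.5. The filter settings and the leaving out of repeated symbols cannot change the value of a single keratin, so part of the 323 was fixed in advance. The cause of the trend in E18.5 WT was not tested.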
